A study of Mus musculus with 6 samples.

Results

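The genes described here are those of the colony stimulating factor 1 (CSF1) receptor axis and the core identity genes of macrophages. They were chosen by name: the ligand genes Csf1 and Il34, the receptor gene Csf1r, and Adgre1, Itgam, Mpeg1, Lyz1, Lyz2 and Cd68. Of these 9 genes, 8 had a probe under that symbol in the platform annotation, and the 8 genes held 16 of the 45281 probes. No probe carried the symbol Cd68, so that gene was not analysed here.

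CSF1 and IL-34 are secreted ligands of a single receptor tyrosine kinase, CSF1R, which macrophages and their precursors carry and on which most of them depend for survival and proliferation. CSF1 is made largely by stromal and other mesenchymal cells, so in fat the ligand and the receptor usually belong to different cells. Adipose tissue holds many macrophages, whose number and state change with obesity, lipolysis and drugs.

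The RNA came from GFP-positive stromal-vascular cells, which the study calls adipose progenitors, of AdipoTrak mice (PPARgamma-tTA;tetO-H2B-GFP). A transactivator expressed from the Pparg promoter turns on a fluorescent histone in these mice, so the sorted label marks Pparg promoter activity and not a cell type as such. All mice were adult, 2 to 6 months old, and carried both transgenes. The untreated group ate normal chow, and the rosiglitazone group spent 2 months on chow with 0.0075% rosiglitazone, a thiazolidinedione agonist of PPARgamma. White fat of the inguinal, interscapular and gonadal depots was digested with collagenase before sorting. There were 3 cohorts of 3 to 4 mice in each group. Each of the 6 Illumina arrays stands for pooled animals, and p-values measure the spread between pools.

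Total intensity ranged from 9478692 to 14831319 units per array and detected probes from 15492 to 17379. The progenitor markers, of which 10 of 12 were measured, had a mean of 10.60 to 10.73 log2 units on the untreated arrays and 10.83 to 10.93 on the rosiglitazone arrays, with 0 past the threshold. Among them Pdgfra, a surface receptor of fat progenitors, was at 11.80 ± 0.40 and 12.04 ± 0.23 log2 units (SD, n = 3; limma adjusted p = 0.75). The 10 measured progenitor markers were each detected on every array, while Cd24a of the same list was detected on 0. Of the macrophage genes described here, Csf1r, Adgre1, Mpeg1, Lyz1 and Lyz2 each had a probe detected on every array, while Itgam was detected on 0.

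The macrophage genes were lower with rosiglitazone and the ligand genes were not called. A probe was tested where its detection p was under 0.05 on at least 3 of the 6 arrays, which kept 16442 probes and 12 of the 16 probes described here, from 7 genes. Of these 12 probes, 8 were lower at an adjusted p under 0.05 and 0 were higher, and over all kept probes 1.89% were called lower and 0.493% higher. The 8 lower probes belonged to Csf1r, Adgre1, Mpeg1, Lyz1 and Lyz2. The median log2 change was -1.93 over the 12 probes and 0.04 over all kept probes. The untreated arrays lay wholly above the rosiglitazone arrays for 11 of the 12, which was so for 7.83% of all kept probes. The 11 include the dimmest Adgre1 probe, detected on 0 of 3 rosiglitazone arrays. That probe was kept through the untreated arrays alone, so the filter favoured its lack of overlap. The 8 calls became 5 without untreated replicate 1 and 2 when no detection filter was set and all 45281 probes were tested.

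**Figure D1:**
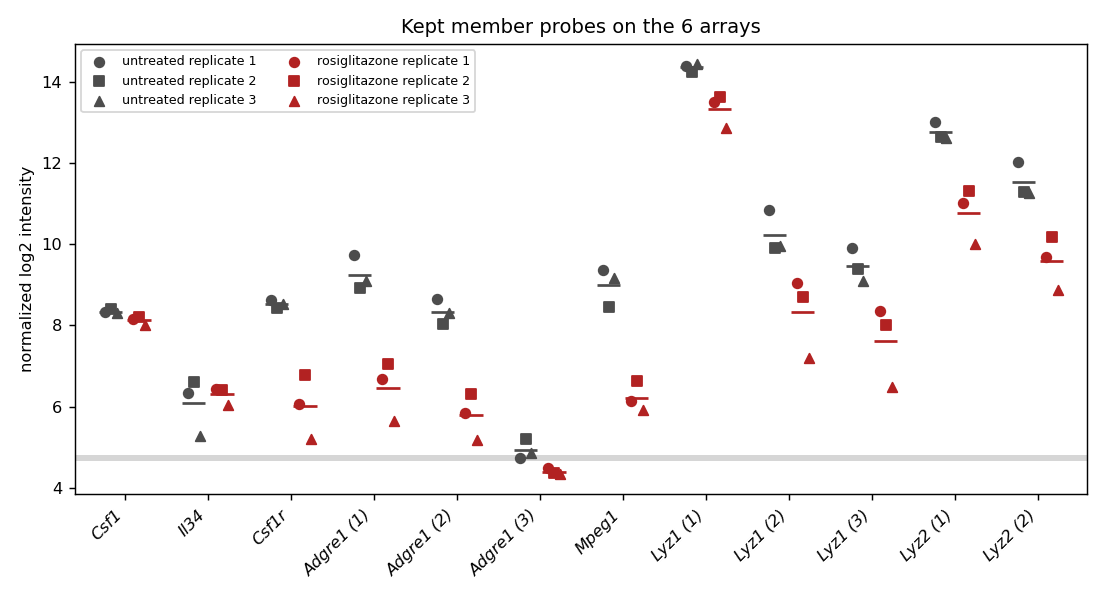
Normalized log2 intensity (vertical axis) of the 12 kept probes on the 3 untreated arrays (grey) and the 3 rosiglitazone arrays (red), with group means as bars and probes of a gene numbered from the brightest. The grey band is the range of the lowest detected signals, 4.65 to 4.79 log2 units. Csf1 stays near 8 log2 units in both groups, with its untreated arrays just above its rosiglitazone arrays. Every untreated array also lies above every rosiglitazone array for Csf1r, Adgre1, Mpeg1, Lyz1 and Lyz2, while for Il34 the groups overlap.

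Csf1, the ligand gene, differed little between the groups. It was detected on all 6 arrays, at 8.34, 8.40 and 8.29 log2 units on untreated replicates 1 to 3 and 8.15, 8.21 and 8.02 on rosiglitazone replicates 1 to 3. The 3 rosiglitazone values lay just below the 3 untreated values. The log2 change was -0.22 with a 95% confidence interval of -0.58 to 0.14 (adjusted p = 0.67).

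Il34, the other ligand gene, is best known for maintaining Langerhans cells and microglia. Its probe was also detected on all 6 arrays, at 6.33, 6.62 and 5.28 log2 units without and 6.44, 6.42 and 6.04 with rosiglitazone. The groups overlapped, and untreated replicate 3 was the lowest of all. The log2 change was 0.22 (95% confidence interval -0.47 to 0.90, adjusted p = 0.85), an interval wide enough to hold a change in either direction.

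Csf1r, the receptor gene, fell. Its brighter probe was at 8.64, 8.42 and 8.53 log2 units without the drug, against 6.07, 6.77 and 5.19 on the rosiglitazone arrays. Every untreated array was above every rosiglitazone array, and the 3 treated pools were more spread out than the 3 untreated ones (SD 0.79 against 0.11). The level was 5.74-fold lower with rosiglitazone (95% confidence interval 3.47 to 9.50, adjusted p = 0.00205). Without background correction its log2 change was -1.63 in place of -2.52, and with no detection filter its adjusted p was 0.073. The dimmer Csf1r probe was detected on 2 of 3 untreated arrays and on 0 of 3 rosiglitazone arrays, which was too few for a test. It was at 5.10, 4.42 and 5.05 log2 units untreated and 4.36, 4.30 and 4.47 with rosiglitazone, and the groups overlapped.

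In bulk RNA of this kind, fewer macrophages in the sorted fraction and less of these transcripts per cell cannot be told apart. This holds for every macrophage gene below.

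The ligand and receptor probes were also compared within each array. The log2 difference of Csf1 minus Csf1r was -0.30, -0.03 and -0.23 without the drug, against 2.08, 1.44 and 2.83 on the rosiglitazone arrays. The groups did not overlap, and the difference was 2.30 log2 units greater with rosiglitazone (exact two-sided permutation test, p = 0.10). For Il34 minus Csf1r the values were -2.30, -1.81 and -3.24 against 0.37, -0.35 and 0.84, a shift of 2.74 log2 units (exact two-sided permutation test, p = 0.10). Adjusted over these 2 comparisons both p-values were 0.10, which is the smallest that 3 arrays against 3 can give, so neither could pass 0.05. The shifts compare changes of probes, not the amount of ligand against the amount of receptor.

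**Figure D2:**
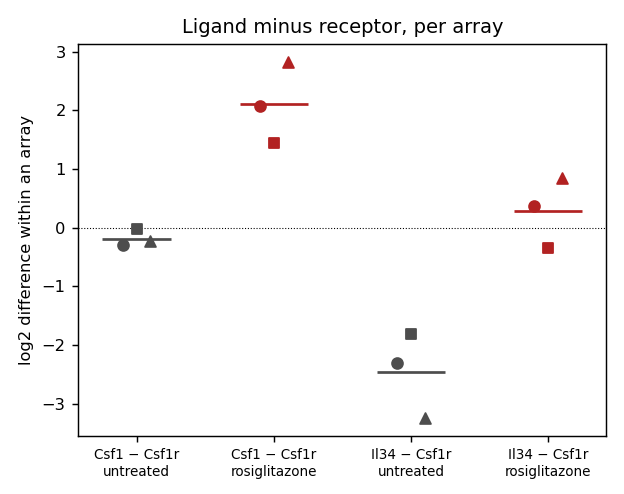
Log2 difference within each array (vertical axis) between a ligand probe and the brighter Csf1r probe, for Csf1 and Il34, on untreated (grey) and rosiglitazone (red) arrays; circles, squares and triangles are replicates 1, 2 and 3, and bars are group means. For Csf1 the 3 untreated arrays sit between -0.30 and -0.03 and the 3 rosiglitazone arrays between 1.44 and 2.83, and for Il34 the groups are likewise apart.

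Adgre1 encodes F4/80, an adhesion G protein-coupled receptor long used as the surface marker of mouse macrophages. Its brightest probe was at 9.74, 8.91 and 9.10 log2 units without the drug, against 6.69, 7.05 and 5.65 on the rosiglitazone arrays. It was 6.90-fold lower (95% confidence interval 4.07 to 11.7, adjusted p = 0.00145), with no overlap. The second probe averaged 8.33 ± 0.32 log2 units untreated and 5.78 ± 0.57 with rosiglitazone (SD, n = 3), and limma's fit put it 5.86-fold lower (adjusted p = 0.000909). Its log2 change was -1.59 in place of -2.55 without background correction, while the call held in every setting tried. The third probe lay near background, was detected on all 3 untreated and 0 of 3 rosiglitazone arrays, and did not pass (adjusted p = 0.245). A bound put it 1.16-fold lower. Such a bound takes the dimmer group at the lowest detected signal of each array, or at the probe's measured value where that is higher. It compares group means and leaves out the spread between arrays, so it is not a confidence limit.

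Mpeg1, which encodes the pore-forming protein perforin-2 of macrophage phagosomes, had the smallest p of the 12 probes. Its brighter probe was at 9.36, 8.46 and 9.17 log2 units without the drug, against 6.13, 6.62 and 5.91 on the rosiglitazone arrays. The rosiglitazone pools were all below the lowest untreated pool, and the level was 6.86-fold lower (95% confidence interval 4.55 to 10.3, adjusted p = 0.000454). This call held in every setting tried, the test over all 45281 probes included (adjusted p = 0.022). The other Mpeg1 probe was detected on 0 of the 6 arrays and was not tested.

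Itgam encodes CD11b, the alpha chain of an integrin on macrophages, monocytes and neutrophils. Its only probe was detected on 0 of the 6 arrays, with detection p-values of 0.0855 to 0.885. Whether Itgam was expressed below the reach of this probe cannot be read from the arrays, and no change is given. Itgb2, the beta chain that pairs with CD11b, was measured and was 2.14-fold lower (adjusted p = 0.038), a gene named here after its values were seen. It was detected on 2 of 3 rosiglitazone arrays. Its call was lost without background correction, with an offset of 50, with median scaling, with the deposited normalized table and with no detection filter. Among probes detected on all 6 arrays it was not tested. The call was also lost without untreated replicates 1 or 2 and without rosiglitazone replicates 2 or 3.

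Lyz2 encodes the lysozyme of myeloid cells, an enzyme that cleaves bacterial cell walls, and its promoter drives the widely used LysM-Cre. Its brightest probe was at 13.02, 12.65 and 12.61 log2 units without the drug, against 11.01, 11.31 and 10.00 on the rosiglitazone arrays. It was 3.97-fold lower (95% confidence interval 2.49 to 6.35, adjusted p = 0.00598). The second probe, at 12.04, 11.30 and 11.25 against 9.68, 10.17 and 8.88 log2 units, was 3.86-fold lower (adjusted p = 0.00927). Neither probe's groups overlapped, and the second lost its call without untreated replicate 1. The third Lyz2 probe was detected on 1 array of each group and was not tested.

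Lyz1 is the neighbouring lysozyme gene, known in the mouse mainly from Paneth cells of the intestine. Its brightest probe was at 14.39, 14.25 and 14.43 log2 units without the drug, against 13.51, 13.62 and 12.86 on the rosiglitazone arrays. It was 2.04-fold lower (95% confidence interval 1.46 to 2.85, adjusted p = 0.038), the smallest change among the called probes. Its unnormalized signal ran from 7019 to 28079 units, where the brightest probe of any kind read 31740 to 45880 units per array. Whether so bright a probe understates its change was not tested.

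The other Lyz1 probes gave larger changes with less certainty. The second probe was at 10.85, 9.91 and 9.95 log2 units untreated and 9.05, 8.71 and 7.21 with rosiglitazone, 3.77-fold lower at the edge of the threshold (adjusted p = 0.0499). The third went from 9.46 ± 0.40 to 7.62 ± 1.00 log2 units (SD, n = 3) and did not pass (log2 change -1.84, adjusted p = 0.0521). Rosiglitazone replicate 3 was the lowest array for all 3 probes, and the groups did not overlap for any of them. In the 6 fits that each lacked 1 array, the brightest probe kept its call in 1 and the second probe in 2, so the Lyz1 calls depended on which arrays entered the fit. Lyz1 and Lyz2 messages are closely related, and signal shared between their probes was not tested.

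The relation between the lysozyme genes can be seen in the sequence before their starts, shown because both neighbours were called lower. Each line gives the 250 bases upstream of the gene start in RefSeq's annotation of GRCm38.p6, 5′ to 3′ on the gene's strand. The Lyz1 window is chr10:117292869-117293118 and the Lyz2 window chr10:117282273-117282522, both on the minus strand. Capitals mark the last 50 bases, the longest run identical at the same position in both.
Lyz1: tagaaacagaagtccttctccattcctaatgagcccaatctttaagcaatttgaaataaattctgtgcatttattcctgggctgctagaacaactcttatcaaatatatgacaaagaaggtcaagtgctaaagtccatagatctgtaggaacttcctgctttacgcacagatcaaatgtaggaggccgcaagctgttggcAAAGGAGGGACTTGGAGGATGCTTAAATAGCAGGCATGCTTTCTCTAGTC
Lyz2: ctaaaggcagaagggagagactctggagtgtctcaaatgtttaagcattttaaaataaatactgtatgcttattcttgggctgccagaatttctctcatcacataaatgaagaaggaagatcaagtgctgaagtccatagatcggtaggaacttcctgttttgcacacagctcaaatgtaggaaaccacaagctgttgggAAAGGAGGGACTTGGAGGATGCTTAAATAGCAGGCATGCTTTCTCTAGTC
Over the whole window, a global alignment had 200 identical positions in 252 columns, 79.4%. The matching stretch was thus longest next to the start.

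Windows of this table were found for 6 of the 9 genes: Csf1, Itgam, Mpeg1, Lyz1, Lyz2 and Cd68. They were searched on both strands for GAGGAA, the core of the site bound by PU.1, the transcription factor that specifies the macrophage lineage. It occurred in the window of Itgam, 84 and 15 bases before the start, and of Cd68, 225 bases before it. It did not occur in those of Csf1, Mpeg1, Lyz1 and Lyz2, and 23.3% of the 32851 windows in the table held it. The Mpeg1 window is shown as that of the gene with the smallest p of those described. It lies on the plus strand at chr19:12460520-12460769, with no capitals because the motif was not found.
Mpeg1: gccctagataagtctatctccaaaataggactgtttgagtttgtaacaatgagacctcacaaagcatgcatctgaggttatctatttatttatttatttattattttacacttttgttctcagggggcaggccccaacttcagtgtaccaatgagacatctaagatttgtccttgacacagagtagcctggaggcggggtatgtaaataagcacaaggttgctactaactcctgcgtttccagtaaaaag
Absence of these 6 letters from a 250-base window says nothing about whether the factor binds elsewhere.

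**Figure D3:**
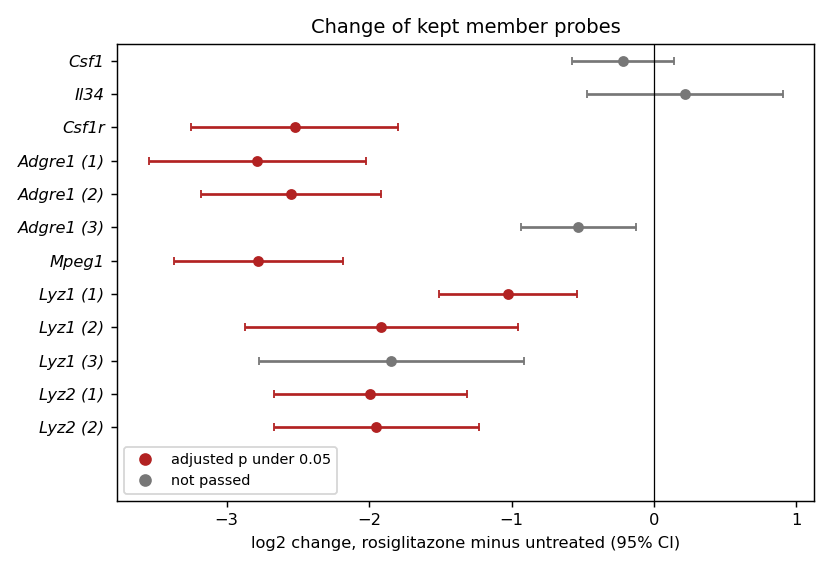
Log2 change with rosiglitazone (horizontal axis, rosiglitazone minus untreated) of the 12 kept probes with 95% confidence intervals from limma; red points passed an adjusted p of 0.05 and grey points did not. The intervals of Csf1 and Il34 include 0, those of Csf1r, the brighter Adgre1 probes and Mpeg1 centre between -2.79 and -2.52, and those of Lyz1 and Lyz2 centre between -1.99 and -1.03.

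The macrophage probes shared a direction and, in part, an order of arrays. Over the 10 kept probes of Csf1r, Adgre1, Mpeg1, Lyz1 and Lyz2, rosiglitazone replicate 3 was the lowest of its group for all 10. Untreated replicate 1 was the highest of its group for 8. The rest of the order varied: the lowest untreated array was replicate 2 for 6 probes and replicate 3 for 3. The highest rosiglitazone array was replicate 2 for 7 and replicate 1 for 3. Several of the 10 probes belong to the same gene, and the same counts over all kept probes were not made. The 10 include the third Adgre1 probe, kept through the untreated arrays alone. The mean over the 10 probes was 10.13, 9.65 and 9.73 log2 units without the drug, against 8.08, 8.29 and 7.17 on the rosiglitazone arrays. The lowest untreated mean was thus above the highest rosiglitazone mean.

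Likeness to Csf1r was described by the root mean square difference between centred log2 values over the 6 arrays, which is 0 for identical profiles. Taking each gene's brightest kept probe, it was 0.25 for Adgre1, 0.30 for Lyz2, 0.36 for Mpeg1 and 0.79 for Lyz1. It was 1.22 for Csf1 and 1.47 for Il34, against a median of 1.38 over the 9753 other genes. Csf1r itself differed from its own mean by 1.34 on this scale. The other genes nearest to it were Fcgr3, an Fc gamma receptor gene (0.151), the lysosomal peptide transporter gene Slc15a3 (0.159), the invariant chain gene Cd74 (0.167), the lectin gene Clec4b1 (0.175) and the MHC class II gene H2-Ab1 (0.180). Nearest to Csf1 were Vamp3, Akr1a1 and Dusp11, at 0.02 to 0.04. Csf1 varied by only 0.13 around its mean, so a low value there says mainly that these genes were nearly flat too.

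Genes that act with CSF1R or in the same lineage were read from lists, each gene by its brightest kept probe. Over all 9760 genes so measured, 2.27% were called lower and 0.594% higher, and the median log2 change was 0.04. The untreated arrays lay wholly above the rosiglitazone arrays for 833 of the 9760. Of 22 signalling adaptors, kinases and phosphatases used by CSF1R, 11 were measured, 3 fell, 0 rose and 8 did not pass, with a median of -0.36. The phosphatase gene Ptpn6, which encodes SHP-1 of blood cells, was at 8.27, 8.20 and 8.40 log2 units untreated and 6.38, 6.04 and 6.10 with rosiglitazone, 4.34-fold lower (adjusted p = 0.00031). Its other kept probe missed the threshold, with a log2 change of -0.65 (adjusted p = 0.124). Tyrobp, the adaptor DAP12 of myeloid receptors, was at 8.21, 7.43 and 8.17 against 5.78, 5.91 and 5.51, 4.62-fold lower (adjusted p = 0.00072). Vav1, a guanine nucleotide exchange factor of blood cells, was 3.41-fold lower (adjusted p = 0.00608). The groups did not overlap for any of these 3 genes. Plcg2 and Pik3cg, which encode a phospholipase and a PI3-kinase subunit, had log2 changes of -1.17 and -0.98 and did not pass (adjusted p = 0.059 and 0.081). Fgr and Pik3cd, for a kinase and another PI3-kinase subunit, had log2 changes of -0.16 and -0.36, did not pass (adjusted p = 0.80 and 0.53), and their groups overlapped. These 4 genes are named after their values were seen. Without rosiglitazone replicate 1 the count was 5, with Pik3cg and Plcg2 added.

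Of 16 transcription factors of the macrophage lineage, 12 were measured, 3 fell, 0 rose and 9 did not pass, with a median log2 change of -0.55. Irf5, an interferon regulatory factor linked to inflammatory macrophages, was at 7.08, 6.93 and 7.13 log2 units untreated and 5.88, 5.56 and 4.84 with rosiglitazone, 3.07-fold lower (adjusted p = 0.00621). Ikzf1, the zinc finger factor Ikaros of blood cells, was 2.59-fold lower (adjusted p = 0.0047). Irf8, a factor of monocyte and dendritic cell development, was 1.73-fold lower (adjusted p = 0.048), was detected on 2 of 3 rosiglitazone arrays and lost its call without each array in turn. Spi1, which encodes PU.1, was detected on all 3 untreated and 0 of 3 rosiglitazone arrays. Its bound was 1.42-fold lower, and it did not pass (adjusted p = 0.131). Not all 12 moved down: the untreated arrays lay wholly above the rosiglitazone arrays for 7 and wholly below them for Maf and Egr2. Over all 9760 genes measured, they lay wholly above for 833, and the genes wholly below were not counted. The 7 include Spi1, whose probe was kept through the untreated arrays alone. Maf and Egr2 had log2 changes of 0.48 and 0.44, short of the threshold (limma adjusted p = 0.34 and 0.33). Maf was detected on only 1 of 3 untreated arrays. For Nr1h3, Cebpb and Mitf the groups overlapped, with log2 changes of -0.23, -0.08 and 0.02. Maf, Egr2, Nr1h3, Cebpb and Mitf are named after their values were seen.

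Related growth factors and receptors had 10 of 15 genes measured, 1 lower, 0 higher and 9 not past the threshold, with a median log2 change of -0.16. The gene that fell was Csf2ra, the alpha chain of the GM-CSF receptor. It was at 7.56, 7.06 and 7.73 log2 units untreated and 6.05, 5.99 and 5.64 with rosiglitazone, 2.94-fold lower (adjusted p = 0.00305). Probes for Ptprz1, another reported IL-34 receptor, were detected on 0 arrays. Without untreated replicate 3 the count was 2, with Csf2rb2 added, and this gene and Ptprz1 are named after their values were seen.

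Further markers of macrophages and monocytes moved with these genes: of 22, 16 were measured, 11 fell, 0 rose and 5 did not pass, with a median log2 change of -2.26. The list mean was 7.35 to 7.89 log2 units on the untreated arrays and 5.50 to 6.21 on the rosiglitazone arrays. Folr2, the folate receptor beta of resident macrophages, and Aif1, which encodes the calcium-binding protein IBA1, were 6.23-fold and 6.01-fold lower (adjusted p = 0.00031 for each). Clec7a, C1qb, C1qc and C1qa were between 5.65-fold and 9.10-fold lower, although a second Clec7a probe did not pass (adjusted p = 0.052). The count was 8 among probes detected on all 6 arrays and 6 with no detection filter. Cx3cr1, 1 of the 11 and named after its values were seen, was detected on 0 of 3 rosiglitazone arrays. Its probe was thus kept through the untreated arrays alone. Cd163, Mertk, Vsig4, Lyve1 and Siglec1, named after their values were seen, had log2 changes of -0.57, 0.16, -0.05, 0.03 and -0.41 and did not pass. The macrophage genes were chosen with such results known, so their shared direction is a description.

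Markers of other cell types show how far the change extended. Of 9 pan-leukocyte markers 8 were measured and 8 fell, with a median log2 change of -1.81 and a list mean of 8.27 to 8.57 log2 units untreated against 6.24 to 6.98 with rosiglitazone. The count was 5 without untreated replicate 1, 5 among probes detected on all 6 arrays and 2 with no detection filter. Lcp1, the actin-bundling protein L-plastin, was detected on 0 of 3 rosiglitazone arrays, so its probe was kept through the untreated arrays alone. It was called lower (adjusted p = 0.00055), with a bound of 2.94-fold. Arhgdib, Cd52 and Coro1a were 2.71-fold, 6.21-fold and 3.93-fold lower, and another Cd52 probe did not pass (adjusted p = 0.223). Ptprc, which encodes CD45 of all leukocytes, had 4 probes, none of them detected on more than 1 array, and was not tested.

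Lymphocyte markers were mostly undetected, with 3 of 12 measured, 0 past the threshold and a median log2 change of 0.15. The T cell genes Cd3e, Cd3g, Cd4 and Cd8a and the B cell gene Ms4a1 were detected on 0 arrays, and Cd3d on 1 untreated array. The 3 measured genes were Cd79b, Nkg7 and Klrb1c, with log2 changes of 0.29, 0.01 and 0.15 and overlapping groups. Of these, the B cell gene Cd79b was detected on all 3 arrays of each group. All these lymphocyte genes are named after their values were seen. Neutrophil and mast cell markers had 5 of 12 measured and 0 past it (median 0.13). Among them S100a8, a neutrophil and monocyte gene named after its values were seen, had a log2 change of -0.87 with overlapping groups (adjusted p = 0.53), and it was called lower with the replicate number as a block. For dendritic cell markers 4 of 9 were measured and 0 passed (median -0.0025). The dendritic cell integrin gene Itgax had 2 probes, of which 1 was detected on 2 of 3 untreated arrays and neither on a rosiglitazone array.

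Non-immune markers varied between arrays in other ways. All 9 endothelial markers were measured and 0 passed (median -0.23), with list means of 7.46 to 7.82 log2 units untreated and 7.01 to 7.98 with rosiglitazone. The 4 measured erythroid markers had 0 calls and a median of -1.19, with list means of 8.34 to 12.0 untreated and 8.71 to 9.24 with rosiglitazone, a wider range among the untreated pools. The 3 mesothelial markers (median 0.45) and the 3 mature adipocyte markers (median -0.17) also had 0 calls. Of 7 measured mural cell markers, with a median of -0.65, 2 fell: Notch3 by 2.27-fold and Mcam by 1.90-fold (adjusted p = 0.041 and 0.019). Neither was called with median scaling, without untreated replicates 1 or 2, or without rosiglitazone replicates 1 or 2. The part of each cell type in the fall of the macrophage genes was not tested.

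**Figure D4:**
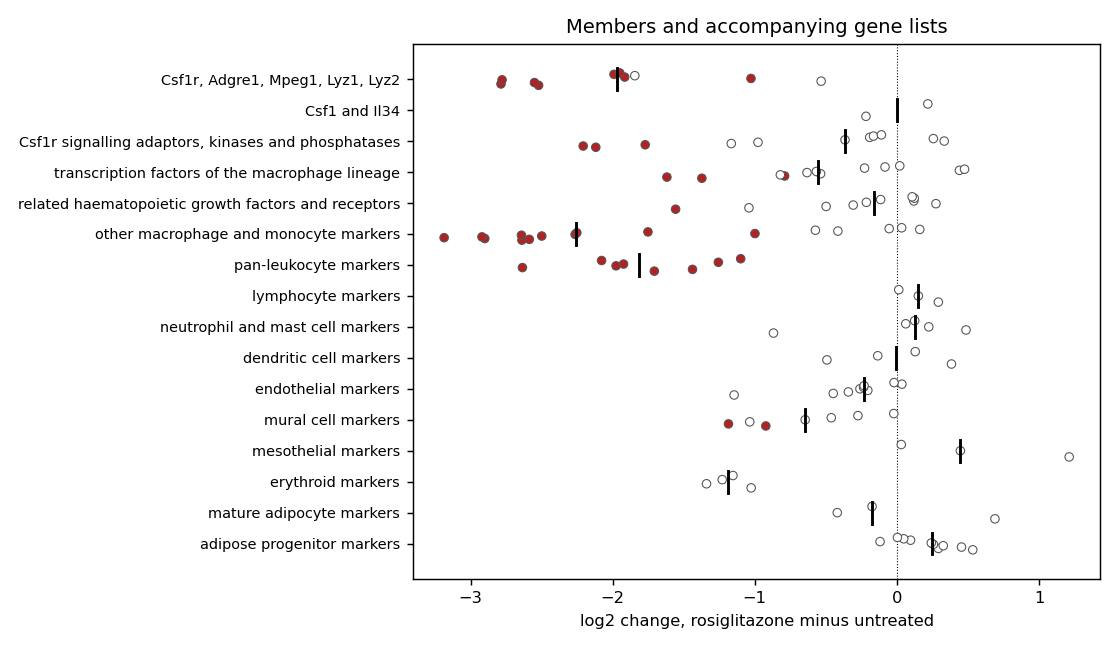
Log2 change with rosiglitazone (horizontal axis) of the kept probes of the named genes (upper rows) and of each gene in the accompanying lists by its brightest kept probe; filled points passed an adjusted p of 0.05, open points did not, and vertical bars are medians. Filled points make up 11 of the 16 macrophage and monocyte markers and all 8 pan-leukocyte markers, with medians of -2.26 and -1.81, while 0 of 10 progenitor markers passed and their median was 0.25.

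The treatment of background changed the size for some probes. Without background correction the log2 change was -1.63 in place of -2.52 for the brighter Csf1r probe, -1.96 in place of -2.78 for Mpeg1 and -1.94 in place of -1.99 for the brightest Lyz2 probe. With each array left out, that of Csf1r ran from -2.89 to -2.12 and that of the brightest Lyz2 probe from -2.26 to -1.61. Over all settings Csf1 ran from -0.26 to -0.16 and passed in 0 of 15 settings, and Il34 from -0.18 to 0.51, turning negative without untreated replicate 3. The offset added before taking logs understates the change of dim probes.

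**Figure D5:**
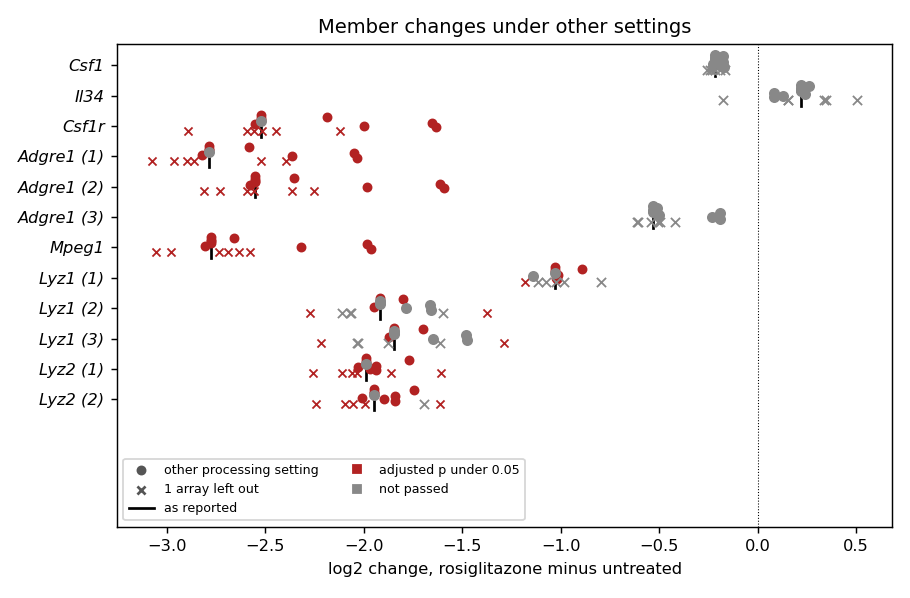
Log2 change (horizontal axis) of the 12 kept probes as reported (black bars), under other processing settings (circles) and with 1 array left out (crosses); red marks passed an adjusted p of 0.05 and grey marks did not. Csf1r, the brighter Adgre1 probes and Mpeg1 stay at or below -1.59 throughout, while the Lyz1 probes cross the threshold in both directions.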

How the data were processed

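Labelled cRNA from 3 untreated and 3 rosiglitazone pools was read on Illumina mouse bead arrays. The deposited non-normalized table gives an intensity per probe and array with no background subtracted, as its values show, and a detection p-value per the file headers. The deposited normalized table gives intensity values of a shared distribution, and its method is not given in the sources used here; the series table equals it (largest difference 0). Starting from the non-normalized values, normexp background correction used the detection p-values (offset 16), arrays were quantile normalized, and log2 was taken with limma 3.58.1 in R 4.3.3. Probes with detection p under 0.05 on at least 3 of 6 arrays were kept. Groups were compared over all kept probes with lmFit and eBayes without covariates, and p-values were adjusted by Benjamini-Hochberg, with a threshold of 0.05. Fold changes and 95% intervals come from that fit, which was tested on simulated data. Within-array differences were tested by exact permutation over arrays.

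The platform annotation gave 34885 probes 1 symbol and 18 several, and 10378 were unnamed here. Named genes were all 9 genes of the axis, the called genes of smallest p in each of 14 lists (at most 8, 6 or 4 a list), Spi1, Tyrobp, Ptprc, Pdgfra and Itgax, and the 5 and 3 genes nearest to Csf1r and Csf1. Other genes are named after their values were seen. Genes and lists were chosen with earlier results of these data known. The labels do not say that a replicate number marks a shared litter, batch or day, so no block entered the fit. For arrays, their number limits the precision.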

Additional observations from a re-analysis of the deposited data

How the results depend on the processing

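Across 15 alternatives covering background, scaling, source table, filter, variance model, array weights, a replicate block and each array left out, 151 of the values for single probes kept their direction and their side of the threshold, 22 lost the call, 5 gained it and 1 reversed. The reversal was Il34, -0.18 to 0.51 with each array left out and below 0 without untreated replicate 3. The 8 called probes became 2 with no detection filter, where all 45281 probes entered the fit and the adjustment. They became 5 to 8 with each array left out, lowest without untreated replicate 1. The 392 called of all kept probes became 260 with median scaling, 157 with no filter and 220 to 446 with each array left out. The 28 called genes of the lists became 13 with no filter and 19 to 30 with each array left out. The cause of these changes was not tested for the filter, the median scaling or the left-out arrays. Csf1 minus Csf1r, run for background, scaling, source table, left-out arrays, the block and averaged probes, kept its direction in each, from 1.46 without background correction to 2.63 without rosiglitazone replicate 2. Without untreated replicate 3 the 4 erythroid markers, Alas2, Hba-a1, Hbb-bs and Hbb-bt, were called lower, and without rosiglitazone replicate 3 Vwf was called lower and Upk3b higher; these were named after their values were seen. Labels give the groups the same replicate numbers without saying what they share, so the numbers were not taken as pairs. Deviations of same-numbered arrays correlated at 0.05, -0.01 and 0.35, and those of differently numbered arrays at -0.30 to 0.27. These values do not settle whether the arrays were paired. With the replicate number as a block, 9 of the 12 probes, 475 kept probes and 32 list genes were called, S100a8 and Vwf among the last, and the paired sign-flip test of Csf1 minus Csf1r (2.30) gave an exact p of 0.25, the smallest it can give. No label or header identifies the bead chip, so it could not enter as a block. Signal near background limits the third Adgre1 probe and Spi1 to bounds and left the dimmer Csf1r probe untested.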
